A study of Oncorhynchus mykiss with 18 samples.

Results

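A set of 9 transcripts of rainbow trout (Oncorhynchus mykiss) was examined, chosen by their measured levels for being lowest in alevins held at the 2 lowest concentrations of 17α-ethinylestradiol (EE2), 1.13 and 1.57 ng/L. Levels are in CPM, the estimated counts of a transcript per 1000000 of its library's total. A transcript was a member when its lowest CPM among the other 12 libraries was at least 15% above its highest CPM among the 6 libraries of 1.13 and 1.57 ng/L, and when its mean over those 12 was at least 5 CPM. Of 79244 transcripts listed, 22563 had such a mean, and 9 of these met the rule (0.0399%). The same margin turned round, for transcripts highest at 1.13 and 1.57 ng/L, was met by 336 of the same 22563 (1.49%). The minimum mean was still taken over the other 12 libraries, so transcripts near 0 in those were not counted. Every difference between the 6 libraries of 1.13 and 1.57 ng/L and any other group was used in the choice, so these differences are described and not tested.

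Whole alevins, fish that still carry their yolk sac, were held at 14 °C in flow-through tanks from hatching for 96 hours and sampled at 4 days post-hatch. The water carried 0.01% DMSO in the solvent control, and EE2 measured at 1.13 ng/L, 1.57 ng/L, 6.22 ng/L, 16.3 ng/L or 55.1 ng/L in the exposed groups, for which the sources used here do not say whether DMSO was present as well. Each of the 6 groups had 3 libraries (A, B and C), and each library was made from poly(A) RNA of a pool of 3 alevins. Whether pools of 1 group were raised in different tanks is not stated in the sources used here, and p-values rest on the variation among pools, part of which may be technical.

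EE2 is the synthetic estrogen of contraceptive pills. It binds the estrogen receptors, which in fish liver switch on the genes of vitellogenin, the egg-yolk precursor, also in males and juveniles that normally make little of it. Transcript names that begin with XM are messenger RNAs, and those with XR non-coding RNAs, that RefSeq's annotation software predicted from a genome. Trout carry many near-identical gene copies from an ancient genome duplication, so reads of a single transcript can be shared with a sister sequence.

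The members were 8 predicted messenger RNAs and 1 predicted non-coding RNA. Only 2 matched a gene of the RefSeq gene table, XM_021604833.1 of LOC110524847 and XM_021622186.1 of LOC110536421, and neither gene has a name beyond its locus number, so no function is given here for any member. The members were mostly short: their lengths ran from 226 to 4838 bases with a median of 795 bases, against a median of 2943 bases over the 22563 transcripts, and 7 of 9 were shorter than that. In 7 members the lowest of the other 12 libraries stood above the highest of the 6. The other 2 members, XM_021591842.1 and XM_021587402.1, met the rule only because both sides of the inequality were 0, and their data go against the description of the set, as their values show.

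Library totals were 23837786 to 32851570 estimated counts at 1.13 and 1.57 ng/L. They were 12658946 to 17076432 in solvent, 15365201 to 16164585 at 6.22 ng/L, 19679734 to 29635724 at 16.3 ng/L and 13013502 to 16122131 at 55.1 ng/L. The median gap between a transcript's length and its effective length, which grows with the fragment length that the quantification assumed, was 218 to 230 bases at 1.13 and 1.57 ng/L and 215 to 221 bases at 16.3 ng/L. It was 172 to 195 bases in the other 3 groups. The libraries of 1.13, 1.57 and 16.3 ng/L thus had the greater depth and the larger gap. Pearson's r of log2 CPM over transcripts was 0.801 to 0.859 between libraries of the same group, with transcripts as points that are not independent. Marker lists of liver, blood, lens, retina, neurons, muscle, cartilage, skin and other tissues each had at least 1 transcript with a mean of 5 CPM or more. The 7 cartilage and bone transcripts summed to 553 to 703 CPM at 1.13 and 1.57 ng/L. In the other 12 libraries they summed to 264 to 398 CPM. The 5 cell cycle transcripts summed to 270 to 334 and 169 to 261 CPM in the same order, also without overlap. With overlap, the 10 hepatocyte plasma protein transcripts summed to 1798 to 2587 and 1089 to 1829 CPM. The 22 skeletal muscle transcripts summed to 8757 to 10824 and 9963 to 13428 CPM, also with overlap. These are examples from 19 lists, and the part of the lists in the levels of the members was not tested.

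**Figure D1:**
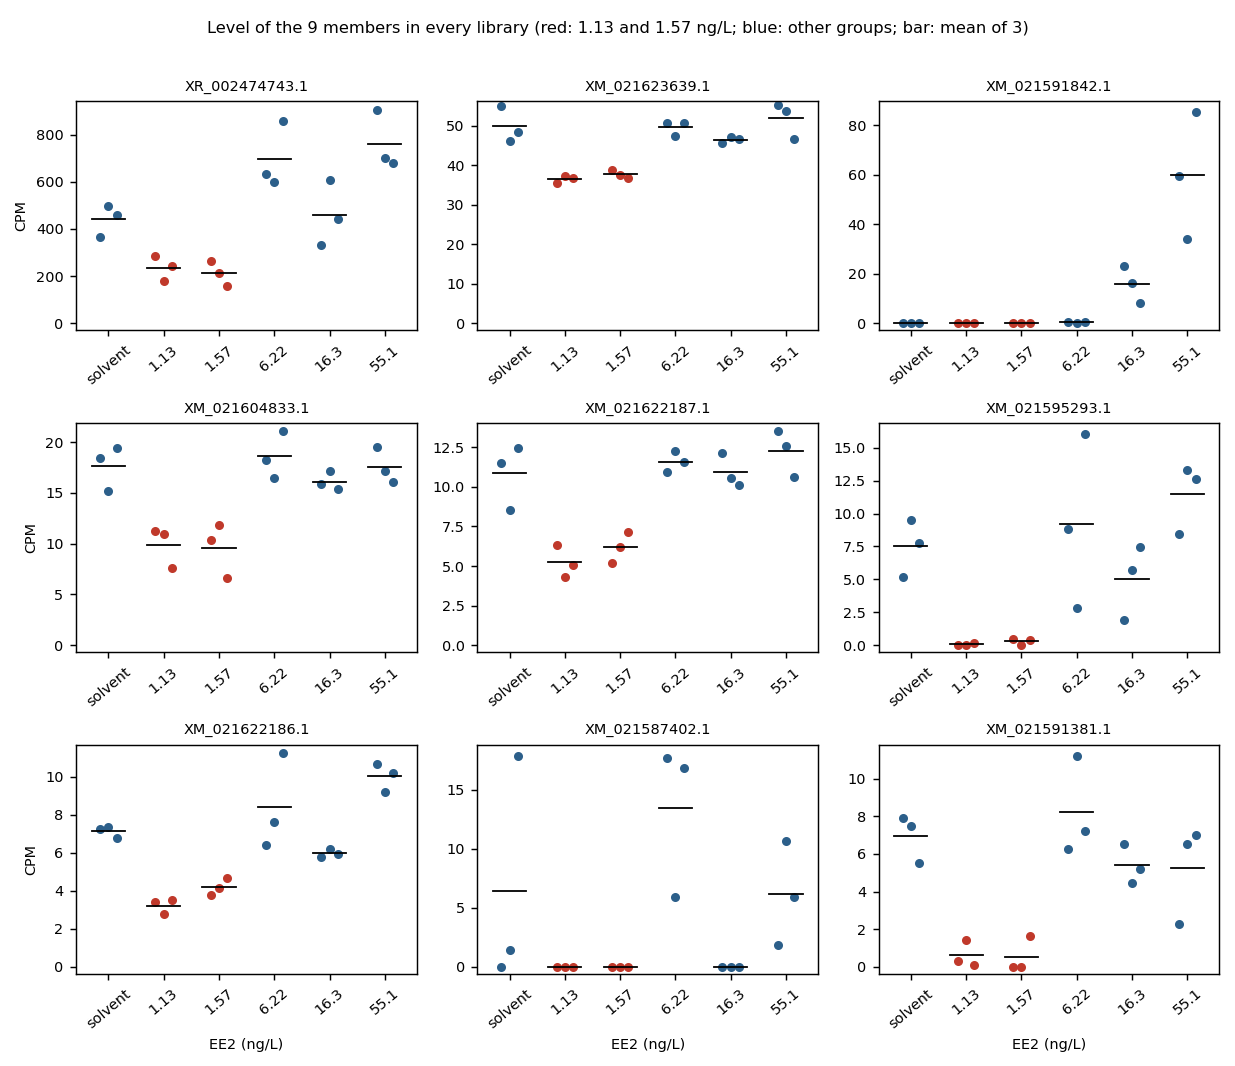
CPM (y axis, linear, a separate scale per panel) of each of the 9 members in every library, by group with solvent at the left and EE2 rising to the right; points are libraries A, B and C from left to right and bars are group means. In 7 panels the 6 red libraries of 1.13 and 1.57 ng/L lie under all 12 blue ones, while XM_021591842.1 is also at 0 in solvent and XM_021587402.1 is also at 0 at 16.3 ng/L.

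The most abundant member was the predicted non-coding RNA XR_002474743.1, 226 bases long. Its CPM was 367, 498 and 460 in solvent, 284, 179 and 242 at 1.13 ng/L, 266, 211 and 160 at 1.57 ng/L, 634, 601 and 856 at 6.22 ng/L, 332, 607 and 441 at 16.3 ng/L, and 905, 699 and 682 at 55.1 ng/L. All 6 libraries of 1.13 and 1.57 ng/L were under every other library, and solvent A and 16.3 ng/L A came closest to them. The means were 224 ± 49.0 CPM in the 6 libraries and 590 ± 180 CPM in the other 12 (SD, n = 6 and 12), a log2 ratio of -1.40. In TPM, a scale that divides by the effective length, it averaged 4503 ± 887 in the 6 libraries and 10929 ± 2830 in the other 12, where its mean level ranked 2 of all transcripts. For a transcript about as short as a sequenced fragment, TPM depends strongly on the effective length.

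Only 53.5% of transcripts matched a gene, so unmatched transcripts of LOC110536421 may exist. Its 1 matched transcript is the member XM_021622186.1 of 613 bases. Its CPM was 7.27, 7.36 and 6.78 in solvent, 3.42, 2.77 and 3.49 at 1.13 ng/L, 3.76, 4.15 and 4.65 at 1.57 ng/L, 6.39, 7.63 and 11.2 at 6.22 ng/L, 5.77, 6.19 and 5.95 at 16.3 ng/L, and 10.7, 9.18 and 10.2 at 55.1 ng/L. The order of the group means was 1.13, 1.57 and 16.3 ng/L, then solvent, then 6.22 and 55.1 ng/L. The 3 libraries of 55.1 ng/L lay above all solvent libraries, while those of 6.22 ng/L overlapped solvent. Its mean was 3.71 ± 0.648 CPM in the 6 libraries and 7.89 ± 1.94 CPM in the other 12, a log2 ratio of -1.09.

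XM_021622187.1, 591 bases long and unmatched to a gene, likewise showed no overlap. It ranged from 4.33 to 7.18 CPM in the 6 libraries and from 8.56 to 13.6 CPM in the other 12, with means of 5.71 ± 1.03 CPM in the 6 libraries and 11.4 ± 1.34 CPM in the other 12. XM_021623639.1, 502 bases long, had the smallest difference of the 7: 35.5 to 38.9 CPM in the 6 libraries and 45.6 to 55.2 CPM in the other 12, a log2 ratio of -0.41. Its libraries were tightly grouped, with an SD of 1.14 CPM in the 6 and 3.52 CPM in the other 12, so that a small difference left no overlap.

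XM_021604833.1, 1437 bases long, is 1 of 4 listed transcripts of LOC110524847. Its CPM was 18.4, 15.2 and 19.5 in solvent, 11.2, 10.9 and 7.57 at 1.13 ng/L, 10.3, 11.9 and 6.60 at 1.57 ng/L, 18.3, 16.5 and 21.1 at 6.22 ng/L, 15.8, 17.1 and 15.3 at 16.3 ng/L, and 19.5, 17.1 and 16.0 at 55.1 ng/L. The log2 ratio of the means was -0.84. Of its sister transcripts, XM_021604811.1 averaged 21.4 ± 2.59 CPM in the 6 libraries and 16.9 ± 2.35 CPM in the other 12, and the 3 sisters together 31.1 ± 2.25 CPM in the 6 libraries and 26.9 ± 3.67 CPM in the other 12. Summed over the 4 transcripts, the gene averaged 40.8 ± 3.21 CPM in the 6 libraries and 44.4 ± 3.13 CPM in the other 12, a ratio of 0.919, and the ranges overlapped. The member took 17.3% to 27.8% of the gene's counts in the 6 libraries and 32.7% to 48.7% in the other 12. With counts summed by gene it was no longer a member.

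**Figure D2:**
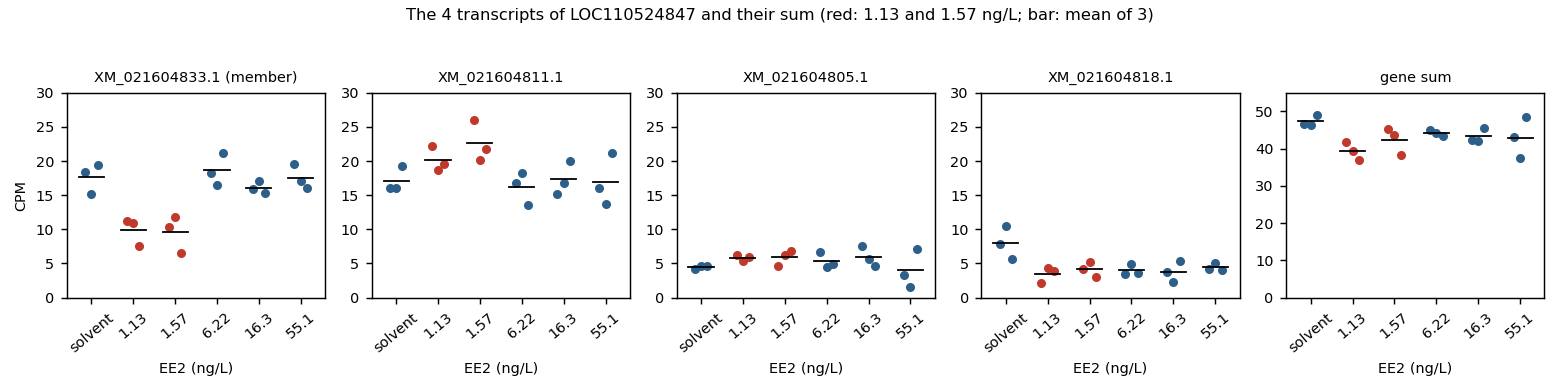
CPM (y axis, linear from 0) of the 4 transcripts of LOC110524847 and of their sum, by group with solvent at the left; points are libraries A, B and C and bars are group means. The member is lower in the 6 red libraries of 1.13 and 1.57 ng/L, XM_021604811.1 is higher on average there, and the gene sums overlap.

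The 2 longest members ran from 0 to 1.65 CPM in the libraries of 1.13 and 1.57 ng/L. XM_021595293.1, 4443 bases long, had 5.18, 9.55 and 7.79 CPM in solvent, 0, 9.71e-09 and 0.190 CPM at 1.13 ng/L, 0.495, 0 and 0.362 CPM at 1.57 ng/L, 8.80, 2.80 and 16.1 CPM at 6.22 ng/L, 1.93, 5.72 and 7.44 CPM at 16.3 ng/L, and 8.47, 13.3 and 12.6 CPM at 55.1 ng/L. The log2 ratio of the means was -5.57. XM_021591381.1, 4838 bases long, had 7.93, 7.47 and 5.53 CPM in solvent, 0.339, 1.43 and 0.0881 CPM at 1.13 ng/L, 0, 0 and 1.65 CPM at 1.57 ng/L, 6.25, 11.2 and 7.24 CPM at 6.22 ng/L, 6.54, 4.43 and 5.22 CPM at 16.3 ng/L, and 2.26, 6.53 and 7.01 CPM at 55.1 ng/L. Its log2 ratio was -3.47, and 55.1 ng/L A came closest to the 6 libraries. Neither matched a gene, so their sister transcripts could not be summed as for LOC110524847, and a shift of counts to another transcript of the same gene was not tested.

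XM_021591842.1, 918 bases long, followed the EE2 concentration and was not lowest at 1.13 and 1.57 ng/L alone. It had 0 CPM in all 9 libraries of solvent, 1.13 and 1.57 ng/L. It then had 0.433, 0.195 and 0.561 CPM at 6.22 ng/L, 23.1, 16.1 and 8.33 CPM at 16.3 ng/L, and 59.5, 34.2 and 85.4 CPM at 55.1 ng/L. The 3 groups above 1.57 ng/L did not overlap one another. A count of 0 allows up to 3 counts per group, here 0.0701 CPM in solvent and 0.0365 or 0.0366 CPM at the 2 lowest concentrations; these limits cover counting error only. Against that limit in solvent, at 6.22 ng/L its level was at least 5.70-fold higher, at 16.3 ng/L at least 222-fold higher and at 55.1 ng/L at least 826-fold higher. The 19 transcripts of the estrogen response list (the egg envelope gene zp2.3, the vitellogenin vtg3 and the estrogen receptors esr1, esr2a and erb2) summed to 7.08 to 8.24 CPM in solvent, 12.6 to 15.2 at 1.13 ng/L, 56.6 to 75.1 at 1.57 ng/L, 193 to 338 at 6.22 ng/L, 540 to 725 at 16.3 ng/L and 623 to 820 at 55.1 ng/L. That list was thus above its solvent range from 1.13 ng/L on, where XM_021591842.1 was at 0.

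XM_021587402.1, 795 bases long, switched between 0 and several CPM within and between groups. It had 6.40e-05, 1.48 and 17.9 CPM in solvent, 0 in all libraries of 1.13, 1.57 and 16.3 ng/L, 17.7, 5.91 and 16.8 CPM at 6.22 ng/L, and 1.86, 10.6 and 5.93 CPM at 55.1 ng/L. The 9 libraries at 0 were those with the largest length gap, and solvent A was under 1 count as well. Whether the length gap or the deeper sequencing of those libraries bears on this transcript was not tested. Pools of whole alevins were sequenced, so for any member fewer cells that make it and less RNA per cell cannot be told apart.

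The members just inside the margin of 15% were XM_021622187.1, XM_021623639.1 and XR_002474743.1, whose lowest of the other 12 libraries was 1.19, 1.17 and 1.17 times the highest of the 6. Just outside stood XM_021625754.1 with a mean of 6004 CPM in the 6 libraries and 8356 CPM in the other 12, XM_021594851.1 and XM_021557039.1. Their lowest of the other 12 libraries was 1.12, 1.12 and 1.11 times the highest of the 6.

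The rule set no difference between 1.57 and 1.13 ng/L, nor between solvent and each higher concentration (6.22 ng/L, 16.3 ng/L, 55.1 ng/L). It still used the values of these libraries, each of which had to stay on its side of the gap. That limits how far these groups could differ in a member, so a lack of calls is weak evidence of no difference. These comparisons were tested with edgeR's quasi-likelihood test on 59811 transcripts that passed its filter on low counts. Benjamini-Hochberg adjustment was over all of them, with a threshold of 0.05. The fit scaled libraries by TMM factors, while CPM rests on library totals alone. Its log2 fold changes therefore differ from the log2 ratios of the CPM means. The factors were 0.99 to 1.12 in solvent and 0.93 to 0.95 at 55.1 ng/L. In solvent and 55.1 ng/L the gap between length and effective length was near constant, and in the other groups it varied between transcripts. The comparisons of 6.22 and 16.3 ng/L with solvent thus mix both kinds of library, whose part was not tested. All 9 members passed the filter. XM_021591842.1 and XM_021587402.1 met the mean of 5 CPM only through the groups where they were high, so their differences between groups belong to the choice and are described and not tested, and the tests concern the other 7.

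Between the 2 concentrations that defined the set, 1.57 and 1.13 ng/L, none of the 7 members passed the edgeR test. Of all transcripts tested, edgeR called 14 (0.0234%). In DESeq2 none of the 7 passed either, beside 462 of 59276 transcripts. At an unadjusted p under 0.05 stood 2 of the 7 in DESeq2, beside 3834 of all transcripts, and 1 in edgeR, beside 2622 of 59811. The member in edgeR was XM_021622186.1 with a TMM-scaled log2 fold change of 0.45 ± 0.20 (SE). Its means were 4.19 ± 0.450 CPM at 1.57 ng/L and 3.23 ± 0.398 CPM at 1.13 ng/L (SD, n = 3 each), without overlap. The log2 fold changes of the others with counts in both groups ran from -0.08 for XM_021591381.1 to 0.31 for XM_021622187.1, apart from XM_021595293.1 at 2.19 ± 1.24 (SE), which rests on 23.7 summed counts at 1.57 ng/L and 4.96 at 1.13 ng/L.

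Against solvent, none of the 7 members passed at 6.22 ng/L, 16.3 ng/L or 55.1 ng/L, in edgeR or in DESeq2. Over all transcripts edgeR called 0.0669% for 6.22 ng/L, 0.234% for 16.3 ng/L and 0.207% for 55.1 ng/L. DESeq2 called 634 and 1340 of 59276 and 1164 of 58138 transcripts in the same order. At an unadjusted p under 0.05 stood 1 of the 7 at 6.22 ng/L in edgeR and 2 in DESeq2, 0 at 16.3 ng/L in either tool, and 3 at 55.1 ng/L in edgeR and 4 in DESeq2. By the same unadjusted cut, and in the same order of concentrations, edgeR had 4104, 5782 and 5398 of all 59811 transcripts. DESeq2 had 5040, 7009 and 6330 of all transcripts. In the authors' deposited tables none of the 7 had an adjusted p under 0.05 for 6.22 ng/L or for 16.3 ng/L, beside 1.32% and 3.64% of 28438 transcripts, and 2 had for 55.1 ng/L, beside 3.08%. Over all transcripts the edgeR calls at 55.1 ng/L were 82 higher and 42 lower, but 67 higher and 160 lower with library totals as the only scaling, and those at 16.3 ng/L were 123 higher and 17 lower, but 78 higher and 45 lower.

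The lowest p-values of the 7 at 55.1 ng/L were those of XM_021622186.1 and XR_002474743.1. XM_021622186.1 averaged 10.0 ± 0.762 CPM at 55.1 ng/L and 7.14 ± 0.315 CPM in solvent (SD, n = 3 each). Its TMM-scaled log2 fold change, larger than the log2 ratio of these means, was 0.68 ± 0.20 (SE, edgeR adjusted p = 0.305). XR_002474743.1 averaged 762 ± 124 CPM at 55.1 ng/L and 442 ± 67.3 CPM in solvent. Its TMM-scaled log2 fold change, also larger than the log2 ratio of the means, was 0.97 ± 0.30 (SE, edgeR adjusted p = 0.331). In both, all 3 libraries of 55.1 ng/L were above all 3 of solvent, and neither passed in edgeR or DESeq2. The lowest DESeq2 adjusted p of the 7 at 55.1 ng/L was 0.0578, close to the threshold. The authors' deposited table gives an adjusted p of 0.0413 for XM_021622186.1 and 0.0363 for XR_002474743.1. Both had lower means at 16.3 ng/L than at 6.22 and 55.1 ng/L: XR_002474743.1 averaged 460 ± 139 CPM at 16.3 ng/L and 697 ± 139 CPM at 6.22 ng/L, and XM_021622186.1 averaged 5.97 ± 0.211 CPM at 16.3 ng/L and 8.42 ± 2.51 CPM at 6.22 ng/L. The groups of 16.3 and 6.22 ng/L were compared by a choice made after the data were seen. None of the 7 members passed in edgeR (adjusted p = 0.506 for XR_002474743.1 and 0.395 for XM_021622186.1) or in DESeq2. At an unadjusted p under 0.05 stood 1 in each, beside 6612 of 59811 transcripts in edgeR and 8045 of all transcripts in DESeq2. Of all transcripts edgeR called 45 (0.0752%), a number that was 10 without 1.57 ng/L C and 62 without 55.1 ng/L A. DESeq2 called 1701 of 54781 transcripts.

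At 16.3 ng/L the 7 members with a gap above 0 differed from solvent by less than their standard errors, with log2 fold changes from -0.37 to 0.26. XM_021587402.1, at 0 at 16.3 ng/L, was at least 181-fold lower there than in solvent, whose mean rests mostly on solvent C.

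**Figure D3:**
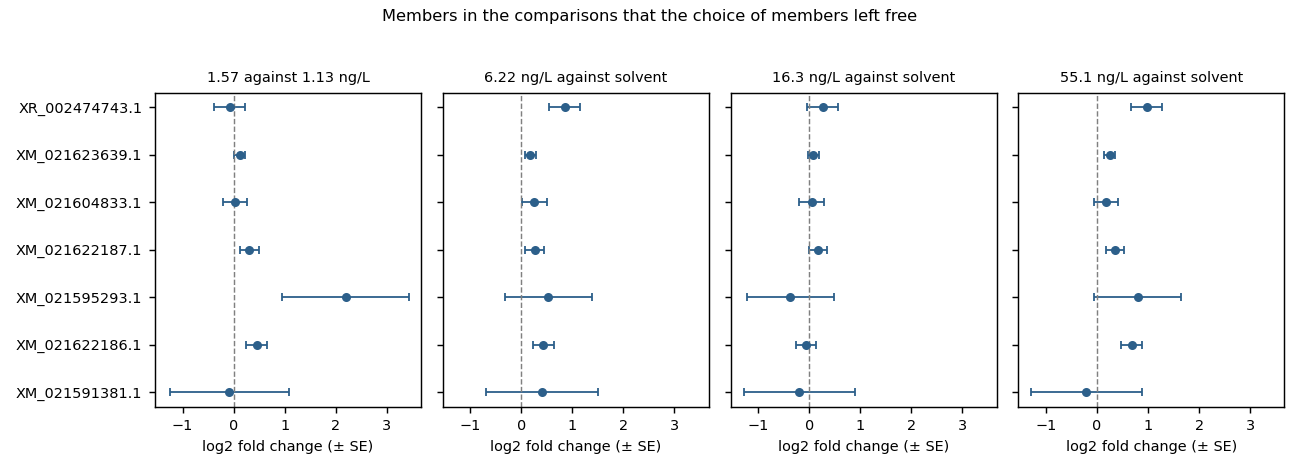
Log2 fold change of the TMM-scaled edgeR fit (x axis, with its standard error as bars) of the 7 members above 0 in every library of the other groups. The 4 comparisons are those for which the rule set no difference, although it used the values of their libraries. The values at 16.3 ng/L lie between -0.37 and 0.26, and XR_002474743.1 and XM_021622186.1 lie farthest above their error at 55.1 ng/L.

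The libraries of 16.3 ng/L had a depth and length gap near those of 1.13 and 1.57 ng/L. The ratio of the mean CPM of the 6 libraries to that of 16.3 ng/L was 0.0347 for XM_021595293.1, 0.108 for XM_021591381.1, 0.486 for XR_002474743.1, 0.522 for XM_021622187.1, 0.606 for XM_021604833.1, 0.621 for XM_021622186.1 and 0.799 for XM_021623639.1. These ratios belong to the choice of members and are a description.

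Across the 12 libraries outside 1.13 and 1.57 ng/L, Pearson's r between the CPM of pairs of the 7 members ran from -0.28, for XM_021591381.1 with XR_002474743.1, to 0.83, for XM_021622186.1 with XR_002474743.1 (n = 12 libraries of 4 groups, which share depth and group differences). Spearman's rho for the same 2 pairs was -0.24 and 0.78.

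Without the margin, 156 transcripts (0.691% of 22563) lay lower in all 6 libraries of 1.13 and 1.57 ng/L than in all other 12, and 1062 (4.71%) lay higher. The 156 had a median length of 767.5 bases and the 1062 a median of 3413 bases. Among 19 gene lists, the 156 held 12 of the 39 measured transcripts of the cytosolic ribosome list and 7 of the 33 of the mitochondrial respiratory chain list. They held 1 of the 8 of skeletal muscle and none of the other 16 lists. The lists were drawn by gene symbol or synonym, so ribosomal protein transcripts under other symbols, or matched to no gene, were not counted. The ribosomal protein transcript of rps28 ranged from 224 to 250 CPM in the 6 libraries and from 272 to 390 CPM in the other 12. That of ndufb5, a subunit of respiratory complex I, ranged from 763 to 874 CPM in the 6 libraries and from 961 to 1486 CPM in the other 12.

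The summed level of the ribosomal list was 14200 to 15631 CPM in the 6 libraries and 15995 to 19875 CPM in the other 12, and its median log2 ratio was -0.25, with 37 of 39 transcripts below 0. The respiratory list summed to 2093 to 2302 CPM in the 6 libraries and 2526 to 3061 CPM in the other 12, with a median of -0.18 and 28 of 33 below 0. The median over all 22563 transcripts was 0.07.

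Both lists consist of short transcripts, with median lengths of 750 bases for the ribosomal and 811 bases for the respiratory one, and the level of a transcript at 1.13 and 1.57 ng/L varied with its length. Of 166 transcripts under 500 bases, 20 lay below all other libraries and 0 above. Of 1355 from 500 to 1000 bases, the class of both list medians, 77 lay below (5.68%) and 28 above. Of 7210 transcripts of 4000 bases and over, 11 lay below and 420 above. The median log2 ratio of the 6 libraries to the other 12 was -0.28 under 500 bases and -0.12 from 500 to 1000 bases. It was 0.12 at 4000 bases and over. Both lists had larger shares below than the class from 500 to 1000 bases, and lower medians (-0.25 and -0.18). The cause of that difference was not tested. Relative to solvent, transcripts under 500 bases had a median log2 ratio of -0.33 for 1.13 ng/L, -0.32 for 1.57 ng/L, 0.0040 for 6.22 ng/L, -0.20 for 16.3 ng/L and 0.02 for 55.1 ng/L. At 4000 bases and over the same medians were 0.04 for 1.13 ng/L, -0.05 for 1.57 ng/L, -0.18 for 6.22 ng/L, -0.17 for 16.3 ng/L and -0.20 for 55.1 ng/L. Short transcripts thus had the lower medians at 1.13 and 1.57 ng/L and the higher ones at 6.22 and 55.1 ng/L, while the 5 length classes lay between -0.20 and -0.14 at 16.3 ng/L. The part of transcript length, fragment length, depth and kind of library (varying or near constant length gap) in the levels of the members was not tested.

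**Figure D4:**
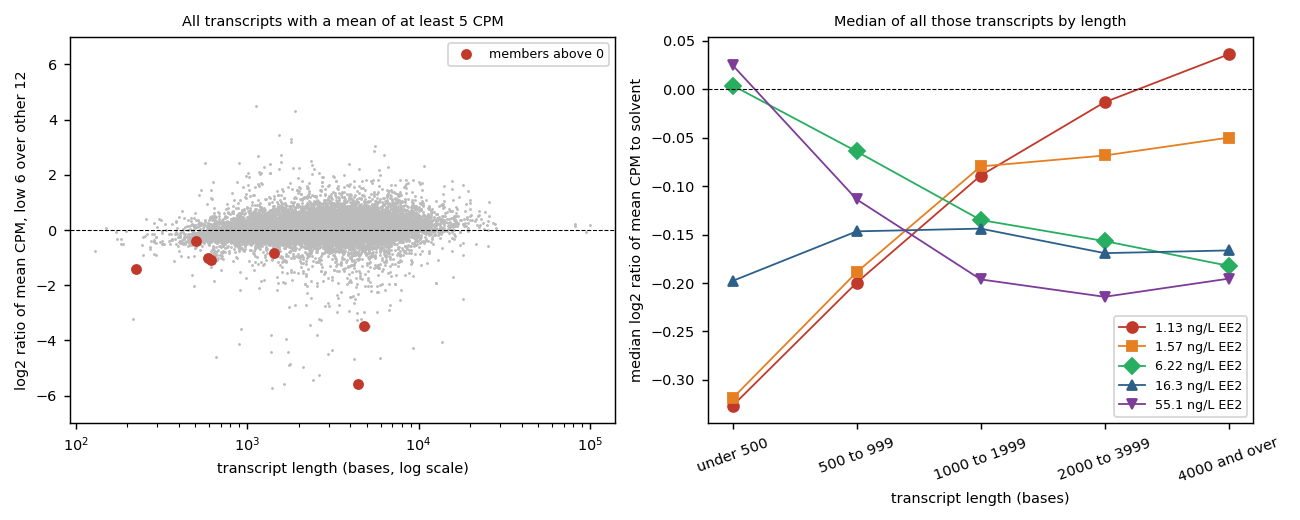
Left, log2 ratio of the mean CPM of the 6 libraries of 1.13 and 1.57 ng/L to that of the other 12 (y axis) against transcript length (x axis, log scale) for transcripts with a mean of at least 5 CPM, with the 7 members above 0 in red. Right, median log2 ratio of mean CPM to solvent in 5 length classes for each EE2 concentration; under 500 bases the lines of 1.13 and 1.57 ng/L are lowest at -0.33 and -0.32, and the line of 16.3 ng/L stays between -0.20 and -0.14 over all classes.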

How the data were processed

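Per the labels, strand-specific poly(A) libraries were made from pools of 3 whole alevins. Trimmomatic 0.38 for trimming, kallisto for quantification and DESeq2 for the comparisons are the tools named, per the submitters' processing notes; other versions and the build are not given in the sources used here. Per the file headers, the deposited table of each library gives estimated counts, TPM, length and effective length for 79244 transcripts. The authors' 5 deposited comparison tables hold a signal, per the file headers: the mean normalised count over libraries. Those deposited tables also hold the authors' log2 fold change and adjusted p-value.

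Effective lengths show 2 kinds of library, for which the sources used here give no reason. In solvent and 55.1 ng/L the gap to the length is near constant, and in the other groups it varies between transcripts, so comparisons of 6.22 and 16.3 ng/L with solvent mix both kinds.

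CPM was the estimated count per 1000000 of the library total. Estimated counts were rounded and tested with edgeR 4.0.16 in R 4.3.3 (TMM scaling, its default filter, quasi-likelihood test, 1 model over 18 libraries); the alternatives included DESeq2 1.42.0. The fit was tested on simulated data. Residual degrees of freedom were 12. Accessions without version matched 42410 transcripts (53.5%) to genes in RefSeq's annotation of assembly GCF_013265735.2, 1083 with the same version; it served for names only. Members and the 19 gene lists were chosen with earlier results of these data known. The text names members by lowest ratio, highest mean, gene name, calls and closeness to the margin, which covers all 9, and the 3 transcripts just outside; rps28 and ndufb5 were chosen after their values were seen. A higher concentration named in the design text was not analysed here.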

Additional observations from a re-analysis of the deposited data

How the results depend on the processing

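The number of members was 158 without a margin, which are the 156 without overlap and the 2 members that tie at 0. It was 4 with a margin of 1.3, 26 with a minimum mean of 1 CPM and 5 with one of 10 CPM. It was 17 with TMM-scaled CPM (8 of the 9 kept, XM_021623639.1 lost), 7 with TPM (5 kept) and 40 with 6.22 and 16.3 ng/L as the only other libraries. With TPM, XM_021622187.1 and XM_021623639.1 fell under the margin, at 1.13 and 1.09 times. XM_021591381.1 and XM_021595293.1 kept their gap with TPM. They averaged 1.96 and 2.57 TPM in the other 12 libraries, under a minimum of 5. Without single libraries the number of members was 9 to 15. It was 14 without 1.13 ng/L A, 1.57 ng/L C or 16.3 ng/L B and 15 without 16.3 ng/L A. All 9 were kept each time, but leaving out a library cannot close a member's gap. Only the minimum mean could have dropped a member, so this says little about stability. Calls over all transcripts with only the 2 groups compared were 0 for 1.57 against 1.13 ng/L, and, against solvent, 4 for 6.22 ng/L, 44 for 16.3 ng/L and 31 for 55.1 ng/L. With DESeq2 they were 462, 634, 1340 and 1164 in the same order. For 55.1 ng/L a fit on the libraries with a near constant length gap is the one with only the 2 groups compared. Calls for 55.1 ng/L were 227 with library totals as the only scaling. Without single libraries they were 34 to 74 at 6.22 ng/L (73 without solvent C, 74 and 62 without 6.22 ng/L B and C) and 89 to 275 at 16.3 ng/L (89 and 275 without solvent B and C, 93 without 16.3 ng/L C). The cause was not tested.

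With library totals as the only scaling the median log2 fold change of all transcripts was -0.18 for 6.22 ng/L, -0.16 for 16.3 ng/L and -0.20 for 55.1 ng/L, against -0.0044, 0.0057 and -0.010 with TMM scaling. With totals, uncalled log2 fold changes turned to -0.048 for XM_021604833.1 at 1.57 against 1.13 ng/L, -0.0085 for XM_021623639.1 at 6.22 ng/L, -0.14 for XM_021604833.1 and -0.10 for XM_021623639.1 at 16.3 ng/L, and -0.074 for XM_021587402.1 and -0.0099 for XM_021604833.1 at 55.1 ng/L.

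Leaving out single libraries turned other uncalled log2 fold changes. At 1.57 against 1.13 ng/L they ran from -6.50 to 1.47 for XM_021591381.1, -0.16 to 0.26 for XM_021604833.1 and -0.29 to 0.12 for XR_002474743.1. At 6.22 ng/L that of XM_021595293.1 ran from -0.23 to 0.98. At 16.3 ng/L they ran from -0.72 to 0.042 for XM_021595293.1, -0.082 to 0.18 for XM_021604833.1, -0.17 to 0.024 for XM_021622186.1, -0.0019 to 0.17 for XM_021623639.1 and -0.078 to 0.51 for XR_002474743.1. At 55.1 ng/L that of XM_021591381.1 ran from -0.47 to 0.14. For XM_021587402.1, which is described and not tested, the range at 55.1 ng/L was -0.64 to 3.27. Of 894 tests of the 7 members above 0 under alternatives, 873 kept direction and side of the threshold and 21 turned. None of the 7 had been called with edgeR, so no call could be lost. Many alternatives left out a library of a group not compared, so these counts say little about stability.

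Over all transcripts no pairing of the pools by the letters A, B and C was seen. Deviations of same-letter libraries correlated at -0.0274 to 0.0327 (45 pairs, none over 0.1). Such values cannot exclude a pairing that touches few transcripts. With the replicate block, calls were 12 for 1.57 against 1.13 ng/L and, against solvent, 28 for 6.22 ng/L, 96 for 16.3 ng/L and 104 for 55.1 ng/L; none of these moved by over 1.5 times. The added comparison of 16.3 with 6.22 ng/L moved to 15 calls with the block and 0 with only the 2 groups compared. It moved to 72 with counts summed by gene or with only the libraries of varying length gap, and to 1701 with DESeq2. Without single libraries it fell to 11 (1.13 ng/L A), 15 (1.13 ng/L B), 11, 19 and 10 (1.57 ng/L A, B and C) and 23, 19 and 22 (16.3 ng/L A, B and C). Depth limits the 2 members at 0, for which 3 counts per group are 0.0365 to 0.0701 CPM.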
